A study of Homo sapiens with 12 samples.

Results

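Carbonic anhydrases are zinc enzymes that turn carbon dioxide and water into bicarbonate and a proton, and back again. The classical cytosolic enzymes CA1, CA2 and CA13, the mitochondrial CA5B and the membrane-bound CA12, whose active site faces outward, carry out this reaction. CA8 and CA11 are related proteins that lack catalytic activity. CA2 is best known from red blood cells, kidney tubules and osteoclasts, where it supplies protons and bicarbonate for gas transport, urine acidification and bone resorption.

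The measurements described here were those of 7 genes of this family, CA2, CA1, CA5B, CA8, CA11, CA12 and CA13, chosen by name and represented by 9 of the 48803 probes on the array. CA2 and CA12 had 2 probes each and the other genes had 1. Total RNA came from KMS11, an established multiple myeloma line in which the t(4;14) translocation drives overexpression of MMSET (NSD2), a histone H3 lysine 36 methyltransferase. In the clones TKO1 and TKO2 the overexpressed MMSET allele had been inactivated, which left a wild-type copy (MMSET-low). In NTKO cells the wild-type allele had been inactivated, which left the overexpressed copy, and WT was the unedited parental line (both MMSET-high). All 4 lines were grown in the same medium with no further treatment, and each was measured on 3 Illumina HumanWG-6 v3 arrays, 12 arrays in all. The MMSET-low state was thus represented by 2 clones and the loss of the wild-type allele by 1 line, so genotype and the history of a single line cannot be told apart in NTKO. Nothing in the labels says whether the 3 arrays of a line came from separate cultures, so p-values measure the spread between arrays, which may be technical.

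The mean background-subtracted intensity of an array lay between 181 and 300 (arbitrary units), and 29.0% to 34.2% of its probes were detected, which means that their signal exceeded that of the negative control beads at a detection p-value under 0.05. Of the 4 NSD2 probes, 1 was bright enough to be tested. Its log2 intensity was 5.67 ± 0.23 (SD, n = 6) on TKO arrays, against 6.27 ± 0.17 on NTKO arrays and 6.36 ± 0.19 on WT arrays (SD, n = 3 each), and it was lower in TKO than in NTKO (limma, adjusted p = 0.0166) and than in WT (adjusted p = 0.0104). NTKO replicate 2 stood apart, with a Pearson correlation over probes of 0.945 to 0.948 with the other NTKO arrays and of 0.974 to 0.978 with the WT arrays, whereas other arrays of 1 line correlated at 0.984 or higher. Some counts of calls, and several named genes, that moved when it was left out are given with and without it. Other counts, mostly of NTKO versus WT, also moved and are not given. Of 10 plasma cell markers 9 were tested, and in TKO versus NTKO 4 were lower and 3 higher, led by JCHAIN (5.39, 42.1-fold higher), CD38 (detected on no TKO array, at least 5.37-fold lower) and SDC1 (-1.32, 2.5-fold lower), while 15.5% of all genes tested were lower and 14.3% higher. NTKO also differed from WT, with JCHAIN at -4.68 and CD38 at 1.84 (NTKO minus WT). In TKO minus WT JCHAIN was 0.71 and SDC1 -1.51, and CD38 was at least 1.5-fold lower. CD38 entered the tests only through the NTKO and WT lines, where it was brighter. Its calls as lower in TKO are therefore no independent support for a difference. Of 10 T and NK cell markers 8 were detected on no array and none was tested, and of 10 myeloid markers 9 were detected on no array and none was tested. Of 10 stromal and epithelial markers 6 were detected on no array and 2 were tested. These, PDGFRB (-1.47 in TKO minus WT, -1.08 in NTKO minus WT) and KRT18 (detected on WT arrays only), were lower in both comparisons. Among all genes 11.1% and 4.78% were lower there. Both markers entered the tests only through WT, where they were brightest, so these calls are no independent support. Neither passed in TKO versus NTKO, but PDGFRB did without NTKO replicate 2 (-0.69).

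Of the 7 genes chosen here 3 were bright enough to be tested, CA2, CA8 and CA11, and CA2 alone passed. Over all genes tested 29.7% passed in TKO versus NTKO and 17.7% in TKO versus WT. CA2 was far lower in the MMSET-low TKO clones than in either MMSET-high line, and both of its probes showed this. They were bright in NTKO and WT cells and dim in TKO1 and TKO2. On the first CA2 probe the intensities were 14.8, 17 and 10.4 in TKO1 and 33.6, 43.5 and 48.4 in TKO2. In NTKO they were 724.2, 1062.6 and 780.2, and in WT they were 1645.4, 1205.5 and 932.5. No TKO array came near any NTKO or WT array, and the highest TKO value belonged to TKO2. In TKO1 the probe was detected on 1 of 3 arrays, so its level there was at the edge of what the array can measure, whereas it was detected on all 9 other arrays.

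**Figure D1:**
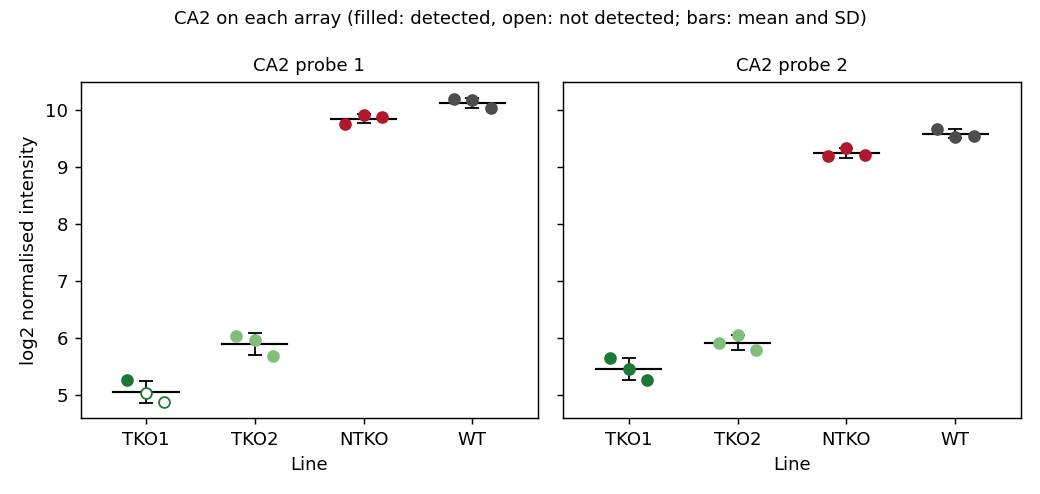
Log2 normalised intensity of the 2 CA2 probes on each array, by line, with the mean and SD of 3 arrays (open circles, not detected). On both probes the 6 TKO arrays lie far below the NTKO and WT arrays, with TKO1 means of 5.05 and 5.45, TKO2 means of 5.89 and 5.91, NTKO means of 9.85 and 9.25 and WT means of 10.13 and 9.58.

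After background correction, quantile normalisation and log2 transformation, the first CA2 probe averaged 5.47 ± 0.49 on TKO arrays (SD, n = 6), against 9.85 ± 0.08 on NTKO arrays and 10.13 ± 0.09 on WT arrays (SD, n = 3 each). The log2 difference of TKO minus NTKO was -4.38 ± 0.14 (SE), or 20.8-fold lower in TKO, with a 95% interval of -4.68 to -4.08 (limma, adjusted p = 5.39e-12 over 15596 probes). Ordered by size, this was the fourth among the decreases in that comparison. Against WT the difference was -4.66 ± 0.14 (25.2-fold, adjusted p = 1.47e-11), the largest of either sign among the 15596 probes tested. Because an offset of 16 is added before the logarithm is taken, these folds understate the change of a probe that is dim in one group. The ratios of mean intensities without offset or normalisation were 30.6 for NTKO over TKO and 45.1 for WT over TKO.

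The second CA2 probe was detected on all 12 arrays and gave the same picture at a somewhat smaller fold. Its intensities were 24.6, 32.3 and 23.3 in TKO1 and 29.9, 47.3 and 54.1 in TKO2, against 479.5, 725.1 and 495.3 in NTKO and 1130.3, 748.8 and 658.4 in WT. The TKO arrays again did not overlap those of either MMSET-high line. On the log2 scale it averaged 5.68 ± 0.30 on TKO arrays (SD, n = 6), against 9.25 ± 0.08 in NTKO and 9.58 ± 0.08 in WT (SD, n = 3 each). The difference was -3.57 ± 0.14 (11.8-fold, adjusted p = 4.43e-11) between TKO and NTKO, and -3.90 ± 0.14 (14.9-fold, adjusted p = 3.73e-11) between TKO and WT. The probes tracked each other with a Pearson correlation of 0.998 over the 12 arrays and of 0.963 over the 6 TKO arrays, where both probes share the RNA and the array.

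Of the 9 carbonic anhydrase probes 4 were bright enough to be tested, in that they were detected on all 3 arrays of at least 1 line. In TKO versus NTKO 2 of these 4, the CA2 probes, passed the test, both lower, and 27.5% of all probes tested passed it, 13.7% lower and 13.8% higher. In TKO versus WT the same 2 passed, both lower, beside 15.8% of all probes, 9.93% lower and 5.87% higher. Each clone was also set against each MMSET-high line on its own, and a probe was called when all 4 differences shared 1 sign and the largest of the 4 p-values passed after adjustment. Both CA2 probes were called in this way (adjusted p = 8.67e-10 and 2.65e-09), beside 4.41% of all probes, 3.37% lower and 1.04% higher. On the first CA2 probe TKO1 was 27.8-fold and TKO2 15.5-fold lower than NTKO, and they were 33.7-fold and 18.9-fold lower than WT. The TKO1 folds are imprecise, since the probe was above background on only 1 of its 3 arrays. These comparisons share the TKO arrays and are not independent of each other.

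**Figure D2:**
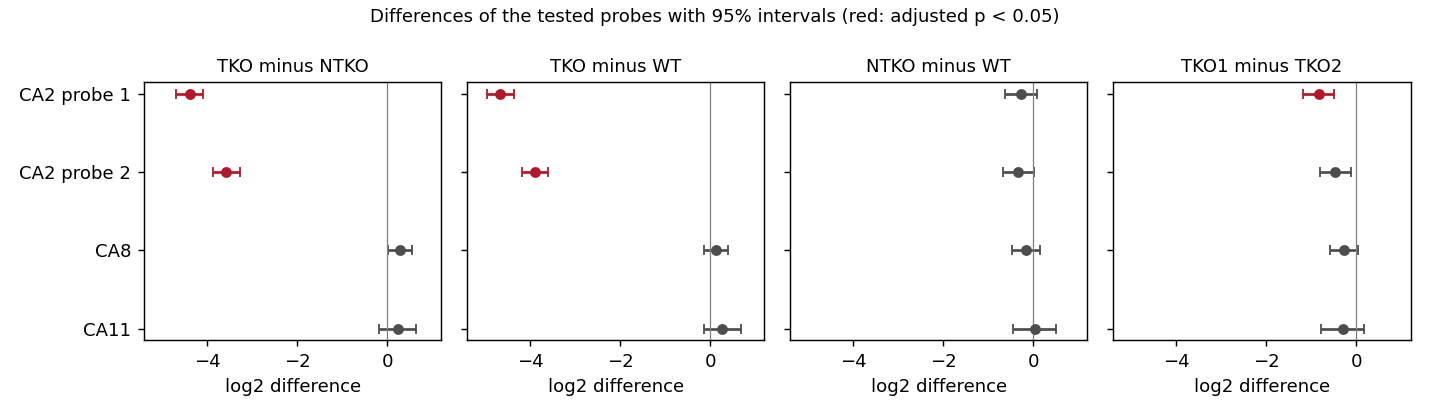
Log2 differences of the 4 tested carbonic anhydrase probes with 95% intervals in 4 comparisons (red, adjusted p under 0.05). Both CA2 probes lie at -4.66 to -3.57 in TKO against NTKO and WT, and the CA8 and CA11 points lie between -0.30 and 0.28 in all 4 comparisons.

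The clones differed in the remaining CA2 signal on 1 of its 2 probes. The first probe averaged a log2 intensity of 5.05 ± 0.19 in TKO1 and 5.89 ± 0.19 in TKO2 (SD, n = 3 each), and the arrays of the clones did not overlap. With 3 arrays per clone such separation is weak support, and the share of all probes that separate in this way is not given. The difference was -0.84 ± 0.16 (1.79-fold, limma adjusted p = 0.023), with the probe detected on 1 of 3 TKO1 arrays and on all 3 TKO2 arrays. It was the 1 carbonic anhydrase probe of 4 to pass in this comparison, in which 0.718% of all probes passed. On the second probe the difference had the same sign but did not pass, at 5.45 ± 0.19 in TKO1 and 5.91 ± 0.13 in TKO2, with a difference of -0.47 (95% interval -0.81 to -0.13, adjusted p = 0.345). The log2 values of that probe did not overlap either (5.26 to 5.64 in TKO1 and 5.78 to 6.05 in TKO2). The call on the first probe did not hold with the authors' own normalised values (-0.64, adjusted p = 0.0565), with median centring (-0.76, adjusted p = 0.179), nor without TKO1 replicate 2 (adjusted p = 0.117), TKO1 replicate 3 (0.107), TKO2 replicate 1 (0.102), TKO2 replicate 2 (0.115), WT replicate 2 (0.0563) or WT replicate 3 (0.0534).

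Loss of the wild-type allele left CA2 high. The log2 difference of NTKO minus WT was -0.28 ± 0.16 on the first CA2 probe (95% interval -0.63 to 0.07, adjusted p = 0.307) and -0.33 ± 0.16 on the second (95% interval -0.67 to 0.01, adjusted p = 0.214), and neither passed. None of the 4 tested carbonic anhydrase probes passed in this comparison, in which 7.20% of all probes did. In order of level, TKO1 and TKO2 stood lowest, with their order resting on the first probe, and NTKO and WT stood highest, without a difference between them that passed.

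CA8, an acatalytic relative known for binding the inositol trisphosphate receptor, was measured well above background in every line. Its intensities were 162.7, 229.3 and 197.3 in TKO1 and 163.9, 230.6 and 332.9 in TKO2, against 145.1, 195.8 and 163.2 in NTKO and 271.9, 178.6 and 185.9 in WT. The groups overlapped. On the log2 scale CA8 averaged 7.87 ± 0.17 on TKO arrays (SD, n = 6), against 7.59 ± 0.07 in NTKO and 7.75 ± 0.13 in WT (SD, n = 3 each). The difference between TKO and NTKO was 0.28 (95% interval 0.01 to 0.55, adjusted p = 0.113) and that between TKO and WT was 0.12 (95% interval -0.15 to 0.39, adjusted p = 0.584). The sign of the comparison with WT was not stable, since it was -0.03 with median centring. Both intervals lie far from the differences of CA2.

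CA11, the other acatalytic member, was dim. Its intensities were 23.7, 28.8 and 19.1 in TKO1 and 38.0, 26.9 and 34.9 in TKO2, against 23.5, 17.5 and 23.5 in NTKO and 31.9, 20.4 and 16.3 in WT, and it was detected on 11 of 12 arrays, not on NTKO replicate 2. The groups overlapped here too. The log2 means were 5.51 ± 0.36 on TKO arrays (SD, n = 6), 5.28 ± 0.32 in NTKO and 5.25 ± 0.12 in WT (SD, n = 3 each). The difference was 0.24 (95% interval -0.18 to 0.65, adjusted p = 0.394) between TKO and NTKO, which became 0.05 (adjusted p = 0.854) without NTKO replicate 2, and 0.27 (95% interval -0.15 to 0.68, adjusted p = 0.405) between TKO and WT.

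CA5B, the mitochondrial enzyme, was detected on 6 of 12 arrays and never on all 3 arrays of a line, so it did not enter the tests. Its intensities were 17.3, 16.4 and 10.1 in TKO1 and 16.1, 0.6 and 18.5 in TKO2, against 48.0, -0.8 and 48.5 in NTKO and 30.5, 12.1 and 14.7 in WT. NTKO replicates 1 and 3 were the brightest arrays, and NTKO replicate 2, the array that stood apart, gave no detectable signal. Without that array CA5B entered the tests and was lower in TKO than in NTKO by 1.16 log2 units (SE 0.18, 2.24-fold, limma adjusted p = 6.73e-05) and higher in NTKO than in WT by 1.07 (SE 0.20, 2.10-fold, adjusted p = 0.000703). CA5B entered only through the 2 remaining NTKO arrays, the group in which it was bright, so these p-values are no independent support for a difference. In the same setting 45.7% of all probes passed in TKO versus NTKO and 32.8% in NTKO versus WT. With all 12 arrays and no filter on dim probes the difference between TKO and NTKO was -0.63 (adjusted p = 0.264). Whether CA5B entered the tests and passed thus depended on that 1 array.

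CA13, a cytosolic enzyme encoded beside CA2, was detected on 3 arrays, 1 each of TKO2, NTKO and WT. Its intensities were 4.1, 4.9 and 11.1 in TKO1 and 4.4, 2.2 and 24.1 in TKO2, against 11.5, 24.9 and 9.4 in NTKO and 15.1, 21.5 and 9.4 in WT. CA1, the abundant red cell enzyme, was not detected on any of the 12 arrays (intensity -18.2 to 7.9). CA12 was not detected on any array by either probe (-3.7 to 19.5 and -14.5 to -5.9). A transcript below the detection limit of these arrays may still be present. Of 9 further family genes with a probe, CA6 and PTPRG were tested and neither passed in any of the 4 comparisons, in which 29.7% (TKO versus NTKO), 17.7% (TKO versus WT), 8.34% (NTKO versus WT) and 0.852% (TKO1 versus TKO2) of all genes tested did. Without NTKO replicate 2 PTPRG, a receptor phosphatase with a carbonic anhydrase-like domain, passed as higher in TKO than in WT (0.38, adjusted p = 0.0335) and in NTKO than in WT (0.49, adjusted p = 0.0252). Of the other 7, CA4 was detected on 3 arrays, and CA3, CA5A, CA7, CA10, CA14 and PTPRZ1 were detected on none.

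**Figure D3:**
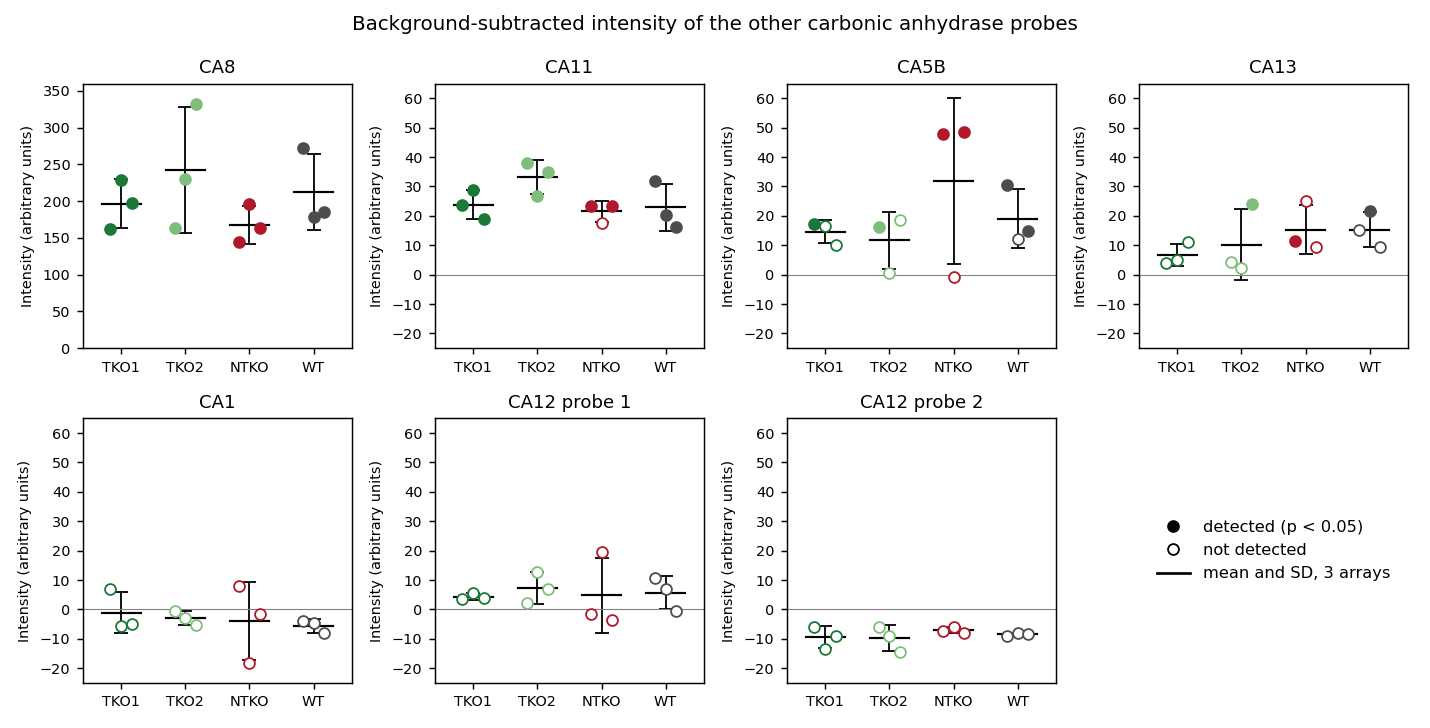
Background-subtracted intensity (arbitrary units) of the 7 probes of the other carbonic anhydrases on each array, by line, with the mean and SD of 3 arrays (open circles, not detected). CA8 has its own scale, from 0 to 360, and lies between 145.1 and 332.9. CA1 and CA12 were not detected on any array.

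CA2 lies on chromosome 8 in a cluster of related genes. In the RefSeq order (GRCh38.p14, used for names and neighbours only) LRRCC1, E2F5, RBIS, CA13, CA1 and CA3 lie on one side of CA2, with non-coding genes between them, and the REXO1L pseudogenes on the other. The cluster genes CA13, CA1 and CA3 were too dim to be tested. Among the 5 nearest genes with a tested probe on each side, 4 of 10 were lower in TKO than in NTKO and none was higher, while 15.5% of the 9857 genes tested were lower and 14.3% higher. These were CHMP4C, an ESCRT-III subunit (adjusted p = 0.000257), LRRCC1, a centrosome protein (-1.05 ± 0.18, adjusted p = 0.000344), MMP16, a membrane-type matrix metalloproteinase (-0.81 ± 0.18, adjusted p = 0.00267), and ZFAND1, a zinc finger protein of stress granule clearance (-0.77 ± 0.18, adjusted p = 0.00465). CHMP4C entered the tests only through the NTKO and WT lines, where it was brighter, so its p-value is no independent support for a difference. It was detected on none of the 6 TKO arrays and on all 3 NTKO arrays, so its difference of -1.86 has only a bound, at least 2.86-fold lower in TKO. The bound sets each undetected array at the lowest normalised signal of its detected probes, or at the probe's own where that was higher.

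The 10 neighbours differed from -1.86 to 0.27 in TKO versus NTKO, with a median of -0.31, while the median of all genes was 0.04. In TKO versus WT they ranged from -1.21 to 0.46 with a median of -0.15, and 2 were lower, LRRCC1 (-1.21, adjusted p = 0.000124) and the cell cycle transcription factor E2F5 (-0.54, adjusted p = 0.0334). SNX16, an endosomal sorting nexin, was higher (0.46, adjusted p = 0.0466). Over all genes 11.1% were lower and 6.55% higher in that comparison. Without NTKO replicate 2 the count lower than WT was 4 of 10, beside 15% of all genes, and the count lower than NTKO was 5 of 10, beside 25%, with RMDN1 added (-0.68, adjusted p = 0.00116). The nearest tested genes, E2F5 and WWP1, a ubiquitin ligase, differed by -0.11 each between TKO and NTKO and did not pass there, beside -4.38 for CA2, and their values were 0.12 and 0.05 without NTKO replicate 2. In NTKO versus WT 1 of the 10 neighbours was higher, ZFAND1 (0.91, adjusted p = 0.0147), and 0 were lower. Among all genes 3.56% were higher and 4.78% lower there. Without NTKO replicate 2 the counts in NTKO versus WT were 4 higher and 1 lower, beside 18% and 17.7% of all genes.

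**Figure D4:**
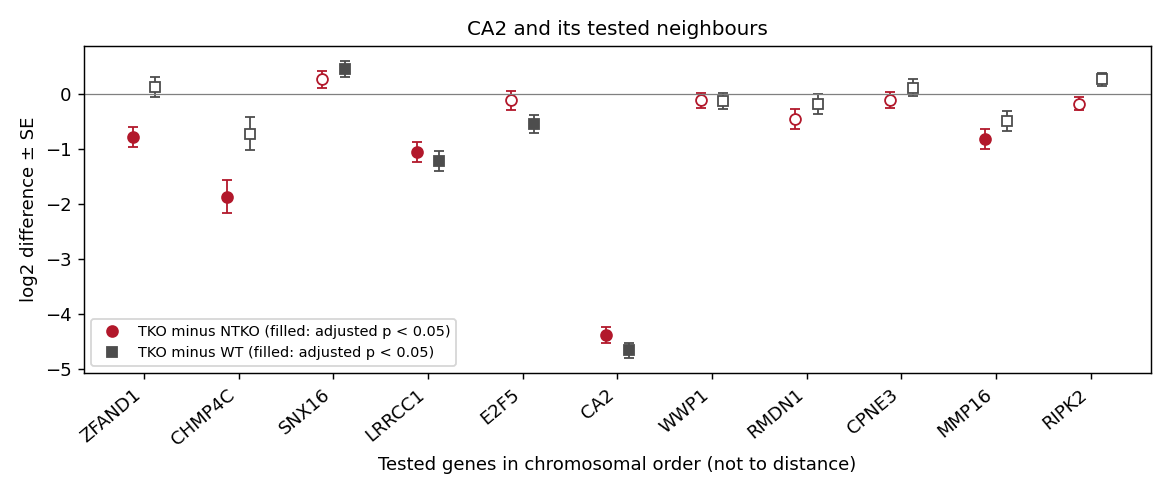
Log2 difference and SE of CA2 and the 5 nearest tested genes on each side, in chromosomal order and not to distance, for TKO minus NTKO (circles) and TKO minus WT (squares), filled where the adjusted p is under 0.05. CA2 lies at -4.38 and -4.66, and its neighbours lie between -1.86 and 0.46.

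The genes whose pattern over the 12 arrays was most like that of the first CA2 probe were picked by their Pearson correlation, which is given as a description because arrays of 1 line share their source. PLOD2, a collagen lysyl hydroxylase, came first (r = 0.997, -3.96 in TKO versus NTKO). It was followed by CDH2, which encodes N-cadherin (0.995, -3.11), IGF2BP2, an mRNA-binding protein (0.993, -3.55), FOXA1, a pioneer transcription factor (0.992, -1.30), RAI14, an actin-binding protein (0.992, -3.24), CMTM7 (0.989, -1.51), IQCK (0.989, -2.25) and RRAS2, a RAS-related GTPase (0.989, -2.71). In all 8 the mean was lower in TKO than in both NTKO and WT, which follows from picking them by their likeness to CA2. All 8 were detected on every NTKO and WT array. CDH2 and CMTM7 were detected on all 6 TKO arrays as well, IQCK on 4, IGF2BP2 on 3, PLOD2 on 2, and FOXA1 and RAI14 on 1. RRAS2 was detected on none and was at least 5.17-fold lower in TKO than in NTKO.

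**Figure D5:**
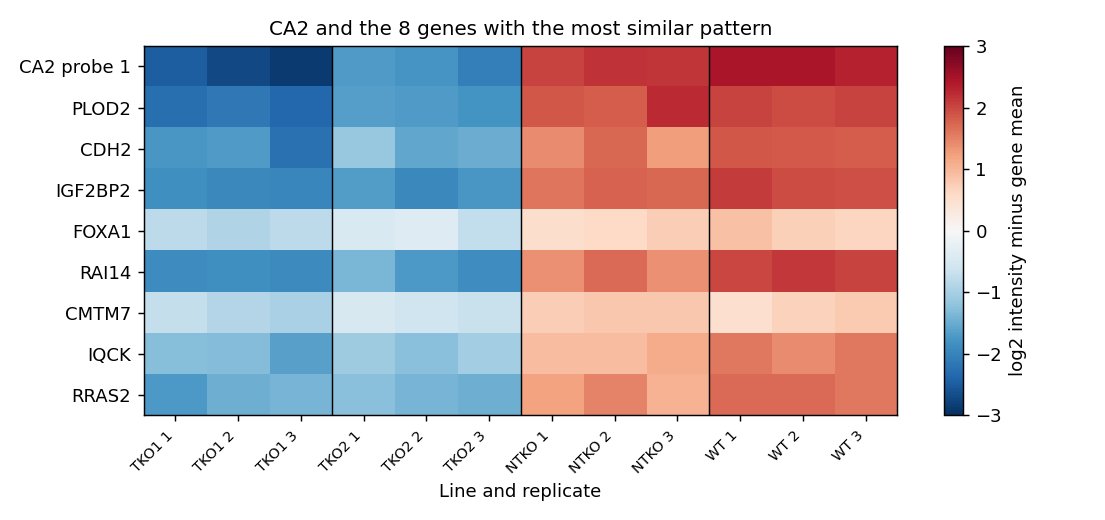
Log2 intensity minus each gene's mean over the 12 arrays for CA2 (first probe) and the 8 genes with the highest Pearson correlation with it (0.989 to 0.997), with TKO1, TKO2, NTKO and WT arrays from left to right. All 9 are low (blue) on the 6 TKO arrays and high (red) on the 6 NTKO and WT arrays.

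Bicarbonate and protons made by carbonic anhydrases are moved by exchangers and pumps, and lists of such partner genes were read beside CA2. Of 21 SLC4 and SLC26 anion transporters 7 were tested, and none passed in TKO versus NTKO (median 0.27), where 15.5% of all genes were lower and 14.3% higher. In TKO versus WT, where 11.1% of all genes were lower and 6.55% higher, 1 was higher, the sulfate and chloride transporter SLC26A11 (0.80 ± 0.24, adjusted p = 0.0267). Of 18 proton and lactate exporters 6 were tested, and 2 were higher in TKO than in NTKO, the Golgi sodium-proton exchanger SLC9A8 (0.55 ± 0.19, adjusted p = 0.0375) and EMB, a chaperone of lactate transporters (0.42 ± 0.15, adjusted p = 0.0485), with a list median of 0.20, beside the same 14.3% of all genes. Without NTKO replicate 2 EMB did not pass (0.36, adjusted p = 0.0764) and BSG, another such chaperone, did (0.36, adjusted p = 0.0328). In TKO versus WT EMB (0.49) and the endosomal exchanger SLC9A9 (0.74) were higher and the monocarboxylate transporter SLC16A7 (-0.82) was lower. SLC16A7 also differed between the clones, by 1.30 (TKO1 minus TKO2, adjusted p = 0.000473), so its TKO mean stands for unlike clones.

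Of 25 genes for V-ATPase, the pump that acidifies vesicles, 19 were tested. In TKO versus NTKO 3 were lower and 1 was higher, with a median of -0.02, beside 15.5% lower and 14.3% higher among all genes. ATP6V0A2, a membrane subunit, was higher (0.70 ± 0.20, adjusted p = 0.0164), while ATP6V1H (-0.56 ± 0.12, adjusted p = 0.0029), ATP6V1G1 (-0.46 ± 0.11, adjusted p = 0.00486) and ATP6V0E1 (-0.36 ± 0.11, adjusted p = 0.0202) were lower. In TKO versus WT ATP6V1G1 alone of the 19 passed (-0.48), beside 11.1% of all genes lower. Without NTKO replicate 2 the counts in TKO versus NTKO were 6 lower and 2 higher, beside 25% and 23.9% of all genes, and 3 were lower in TKO than in WT, beside 15%.

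CA9 and CA12 are known targets of hypoxia-inducible factor, so 22 HIF target genes were counted as well, 19 of them tested. In TKO versus NTKO 5 were lower and 1 was higher, with a median of -0.24, beside 15.5% lower and 14.3% higher among all genes. In TKO versus WT the counts were again 5 and 1, beside 11.1% and 6.55%. P4HA1, a collagen prolyl hydroxylase, was lower (-1.23 ± 0.21, adjusted p = 0.00033), and the vasodilator peptide gene ADM was higher (1.18 ± 0.13, adjusted p = 6.05e-06), with a difference of 1.06 between the clones (TKO1 minus TKO2, adjusted p = 0.00141). PFKFB4, a glycolytic regulator, was lower (-1.02 ± 0.35, adjusted p = 0.0435) but detected on only 2 of 6 TKO and 2 of 3 NTKO arrays. Without NTKO replicate 2 the PFKFB4 difference was -1.73 (adjusted p = 8.39e-08). In that setting the counts in TKO versus NTKO were 9 lower and 2 higher, beside 25% and 23.9% of all genes. In TKO versus WT they were 7 lower and 2 higher, beside 15% and 11.5%. The lists held shares of called genes that lay on either side of those of all genes, and no test of the lists was made.

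Since CA2 marks red cells and osteoclasts, markers of both were measured beside it. Of 17 erythroid and megakaryocyte markers with a probe 13 were detected on no array, among them GATA1, KLF1, SLC4A1, HBA1 and HBA2. The summed intensity of the list was 773 to 984 on TKO arrays, against 315 to 603 on NTKO arrays and 808 to 1494 on WT arrays. It came mainly from HBD and HBB, whose sequences are closely alike, and both were higher in TKO than in NTKO (HBD 0.84 ± 0.16, adjusted p = 0.000817, and HBB 2.09 ± 0.19, adjusted p = 6.07e-07), opposite in sign to CA2. Against WT HBB was higher in TKO (1.24, adjusted p = 0.000201) and HBD was not (-0.18, adjusted p = 0.498). Over all genes 14.3% were higher in TKO than in NTKO and 6.55% were higher in TKO than in WT. Of 9 osteoclast markers with a probe 3 were tested and 4 were detected on no array, TNFRSF11A, ITGB3, DCSTAMP and OCSTAMP. MMP9 was detected on all 6 TKO arrays and on no NTKO or WT array, at least 2.49-fold higher in TKO than in NTKO (adjusted p = 1.38e-07), opposite in sign to CA2, and it also differed between the clones (TKO1 minus TKO2 1.87, adjusted p = 1.11e-05). MMP9 entered the tests only through the TKO clones, where it was high. Its p-value against NTKO is therefore no independent support for a difference. The other tested markers, CTSK (-0.38, adjusted p = 0.246) and OSCAR (0.07, adjusted p = 0.811), did not pass, and CTSK did without NTKO replicate 2 (-0.65, adjusted p = 0.0274). Summed osteoclast marker intensity was 54.0 to 237 on TKO arrays, 45.2 to 130 on NTKO arrays and 57.4 to 98.9 on WT arrays.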

How the data were processed

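RNA of 4 KMS11 lines was profiled on 12 Illumina BeadChips (HumanWG-6 v3), with groups and replicate numbers read from the titles. GenomeStudio, for which the sources used here give no version, was the authors' software. Their deposited export gives a background-subtracted intensity and a detection p-value for each of 48803 probes on each array. These intensities are linear, can be negative and had not been made comparable across arrays. A second deposited table of the authors' processed intensity values served as an alternative. Neither names a slide, so slide effects were not analysed here, and the number of arrays limits the precision.

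The intensities were background corrected and quantile normalised with neqc (limma 3.58.1, R 4.3.3, offset 16), which returns log2 values. The platform annotation gave 1 gene for 27578 probes, several for 13 and none for 21212, and RefSeq held 27541 of the first. The filter kept 15596 probes whose detection p-value was under 0.05 on each of the 3 arrays of some line. For gene lists and neighbours the brightest kept probe stood for each of 9857 genes. One linear model with 4 line means was used (lmFit, eBayes with trend and robust settings, statmod 1.5.0). Tests were two-sided with Benjamini-Hochberg adjustment at 0.05 over all probes, or over all genes for lists and neighbours. TKO stands for the mean of both clones, and the share of all probes or genes past the same test is given beside most counts. The fit was tested on simulated data.

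Every carbonic anhydrase probe was named. Beyond these, the rule took up to 3 called genes per list with the largest difference between TKO and NTKO, the 5 tested genes on each side of CA2, and the 8 genes most correlated with it. Other genes were named after their values were seen, either as undetected list members or where a count of 5 or fewer was given. The members and lists were chosen with earlier results of these data known. Alternatives covered background correction, normalisation, the filter on dim probes, the model, the methods' t-test, 1 probe per gene and leaving out each array. The counts of lists and neighbours without NTKO replicate 2 were added after seeing the data. Carbonic anhydrase sequences are not reported here.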

Additional observations from a re-analysis of the deposited data

Results flagged for a closer look

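The first CA2 probe differed between the 2 clones of the same genotype by -0.84 on the log2 scale (TKO1 minus TKO2, limma adjusted p = 0.023), by the test of the difference itself, and TKO1 was lower on all 3 arrays than TKO2 on any. The second CA2 probe did not pass (-0.47, adjusted p = 0.345), although its log2 values also lay lower on all 3 TKO1 arrays than on any TKO2 array. Such separation is therefore weak support.

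CA5B, whose probe was outside the tests, gave a detectable signal on 6 of 12 arrays, and CA13, likewise outside the tests, on 3 of 12. The brightest CA5B values, 48.0 and 48.5, came from NTKO replicates 1 and 3, and the brightest detected CA13 value, 24.1, from TKO2 replicate 3.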

How the results depend on the processing

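The 2 CA2 probes kept their sign and passed in TKO versus NTKO and in TKO versus WT under every alternative run for them (22 for the first probe, 21 for the second). On the first probe TKO versus NTKO ranged from -4.44 to -3.69 (adjusted p 1.45e-14 to 3.65e-09) and TKO versus WT from -4.92 to -3.96 (2.77e-14 to 4.95e-09). The methods' t-test is not among those alternatives. It was run here on 6 TKO against 3 NTKO arrays, whereas the methods describe equal numbers of both. It called 1497 probes at the methods' threshold and 2526 after Benjamini-Hochberg adjustment, against 4292 in the main test. At either step 2 of them were carbonic anhydrase probes, those of CA2 (t-test adjusted p = 0.000174 for the first and 4.81e-05 for the second). With 1 probe per gene the carbonic anhydrase count was 1 in TKO versus NTKO, in TKO versus WT and over all 4 pairs, because CA2 then has 1 probe. The difference between the clones on the first CA2 probe did not pass without the normexp background correction (-0.56), with median centring (-0.76), with the authors' values (-0.64), with no filter on dim probes (-0.84) or with only the lines compared (-0.84), where the count in TKO1 versus TKO2 was 0, and leaving out 1 array gave -0.94 to -0.75 and a count of 0 to 1. The cause was not tested. Leaving out 1 array gave counts of 2 to 3 in TKO versus NTKO and of 0 to 1 in NTKO versus WT, the higher count in each being CA5B without NTKO replicate 2. Differences that had not passed changed sign for CA8 in TKO versus WT (-0.03) and for CA11 in NTKO versus WT (-0.02), both with median centring, which moved the median of all probes to -0.151 in TKO versus WT and to -0.179 in NTKO versus WT, and for CA11 in NTKO versus WT between -0.08 and 0.22 when 1 array was left out. Without NTKO replicate 2, HIF targets in NTKO versus WT counted 3 lower and 7 higher, against 1 and 0 with it. Among all genes, 17.7% were lower and 18% higher in that comparison without the array, against 4.78% and 3.56% with it. Calls thus rose over all genes as well. A fit with the replicate number as a block left the carbonic anhydrase counts at 2, 2, 0 and 1 and at 2 over all 4 pairs, and called 4665 probes in TKO versus NTKO. The labels do not say that a number marks a shared culture or batch. Of 18 same-numbered pairs 6 deviated together at a correlation over 0.1 (range -0.142 to 0.5, against -0.504 to 0.183 for differently numbered arrays), so the arrays were not treated as paired, although 8 of 12 correlated best with their own number. With only the lines compared no value over all 4 pairs was made. Low signal limits CA11, CA5B and CA13, whose values lie near the lowest intensity detected on an array, 9.3 to 26.3.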
